A study of Mus musculus with 4 samples.

Results

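The genes described here are 8 transcription factors of conventional dendritic cells (cDC), taken by symbol from a table of 13976 genes: Batf3, Zbtb46, Id2, Nfil3, Runx3, Bcl6, Ikzf1 and Id3. All 8 were in the table. Their levels were compared across 4 populations from EO771 tumours, EO771 being a mouse mammary carcinoma line. The populations were CD103+ cDC of type 1 (cDC1), CD11b+ cDC of type 2 (cDC2), a CD103intCD11b+ dendritic cell population (called CD103int DC below) and macrophages. Each population had 1 RNA sequencing library, so no difference could be set against replicate error and no test was made. The sources used here do not give the sorting gates, the strain, sex or age of the mice, how many mice or cells went into a library, or whether the mice had received the heterodimeric IL-15 of the study's title.

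Dendritic cells take up antigen and present it to T cells. Type 1 cells specialise in cross-presentation to CD8 T cells, and type 2 cells in presentation to CD4 T cells. The type 1 fate depends on the leucine zipper factor BATF3, which acts together with IRF8, and on ID2 and NFIL3. ID proteins have a helix-loop-helix domain but no DNA-binding region, so that they sequester E proteins such as TCF4, a factor that plasmacytoid dendritic cells need. NFIL3 is a leucine zipper repressor that acts in a circuit with ZEB2 and ID2. ZBTB46 is a zinc finger repressor that marks the cDC lineage and its committed precursors and is used to tell cDC from other myeloid cells. RUNX3 acts with CBFB and takes part in TGF-beta responses, BCL6 is a repressor that recruits corepressors such as BCOR and NCOR1, and IKZF1 (Ikaros) is a zinc finger factor of all lymphoid and many myeloid lineages.

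Levels are the authors' scaled CPM (counts per 1000000 reads), and 4 values in a row always run from cDC1 through cDC2 and CD103int DC to macrophage. Depth was estimated at 44425900, 44940500, 55960100 and 63817500 reads. A range after a level or a fold is its 95% counting interval on estimated reads (exact Poisson or binomial). These intervals hold counting error alone, with nothing of the spread between mice or sorts, and reads copied by PCR and not tagged by molecule are not independent. In bulk RNA, fewer cells of a type and less RNA per cell cannot be told apart. The labels fitted the markers only in part. The 8 cDC1 markers summed to 2279 CPM in the cDC1 library and to 404 to 579 CPM elsewhere. Wdfy4 alone gave 1728 of the 2279 CPM, and 297, 449 and 511 CPM in cDC2, CD103int DC and macrophages. Each of the 8 was highest in cDC1, though Cadm1 by little (87.6, against 73.6 CPM in cDC2). The 8 macrophage markers summed to 4065 CPM in the macrophage library. However, the macrophage markers also reached 3017 and 2579 CPM in the cDC2 and CD103int DC libraries (849.7 in cDC1). Among them, Cd68 and Mertk were highest in cDC2 (497 and 32.6 CPM, against 422 and 17.6 in macrophages). Mrc1 was highest in CD103int DC (633 CPM, against 379 in macrophages), and the other macrophage markers in macrophages. The 7 cDC2 markers summed to 1319, 2156, 2484 and 2413 CPM. The cDC2 markers did not share a pattern: Sirpa and Itgam were highest in macrophages (1212 and 945 CPM), Mgl2 in CD103int DC (807, against 120.4 in macrophages) and Cd209a, Clec10a and Cd7 in cDC1 (257, 191 and 97.1 CPM). The columns did not share a total: rescaling them to equal totals moved the median of all genes by up to 0.34 on the log2 scale (cDC1 against macrophage), and by 0.24 and 0.25 for the other macrophage pairs. Rescaling by median ratio, over genes above 0 in every column, moved it by -0.01, -0.02 and -0.02 in the same pairs. Ribosomal RNA gene models held 12.5%, 5.94%, 7.08% and 11.3% of the column totals, a share that equal totals does not take out. The macrophage column name carries another prefix than the other 3, whose meaning is not stated, and if it marks a batch, batch and macrophages cannot be told apart.

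Of the 3 members whose levels spanned most, promoter windows are shown for Zbtb46 and Nfil3, while that of Id3 lies on the gene's own exons and is not shown. Windows are also shown for 2 members whose window holds the motif of their own factor (Runx3, Bcl6). They come from RefSeq promoter records on GRCm38, which had 11 entries for the 8 genes, and are the 250 bases before the RefSeq start, 5′ to 3′ on the gene's strand and without bases of the gene's own exons. Capitals mark matches, on either strand, to an E-box (CANNTG, the E protein motif), AP-1 (TGANTCA), RUNX (TGTGGT) or BCL6 (TTCCNNGAA) motif. An NFIL3 motif (TTANNTAA), a PU.1 motif (GAGGAAGT) and an IRF motif (GAAA, any 2 bases, GAAA) were searched as well. A match is a description and not a binding site.
Zbtb46, chr2:181424389-181424638, minus strand: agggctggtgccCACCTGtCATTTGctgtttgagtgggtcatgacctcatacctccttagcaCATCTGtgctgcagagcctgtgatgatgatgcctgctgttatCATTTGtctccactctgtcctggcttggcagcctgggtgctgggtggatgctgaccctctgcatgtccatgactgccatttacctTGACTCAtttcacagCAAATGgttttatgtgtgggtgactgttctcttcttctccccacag
Nfil3, chr13:52981074-52981289, minus strand: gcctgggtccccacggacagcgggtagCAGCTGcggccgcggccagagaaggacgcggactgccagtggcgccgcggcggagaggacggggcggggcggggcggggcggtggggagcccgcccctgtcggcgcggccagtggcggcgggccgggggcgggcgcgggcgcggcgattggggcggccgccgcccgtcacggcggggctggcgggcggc
Runx3, chr4:135120395-135120644, plus strand: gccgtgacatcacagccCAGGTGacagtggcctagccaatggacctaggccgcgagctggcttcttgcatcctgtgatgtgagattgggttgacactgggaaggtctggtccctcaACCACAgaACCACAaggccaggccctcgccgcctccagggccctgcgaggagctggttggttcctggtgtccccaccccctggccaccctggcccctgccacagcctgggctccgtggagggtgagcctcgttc
Bcl6, chr16:23981284-23981533, minus strand: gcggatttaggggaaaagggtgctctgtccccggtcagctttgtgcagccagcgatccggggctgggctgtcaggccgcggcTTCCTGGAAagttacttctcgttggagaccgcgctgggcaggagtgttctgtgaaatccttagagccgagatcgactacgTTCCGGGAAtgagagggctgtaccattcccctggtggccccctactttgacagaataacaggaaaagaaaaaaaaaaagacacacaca

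The RefSeq start of Zbtb46 lies 35 kb inside the gene as GENCODE annotates it, so that the window is intronic there, and it held 5 E-box matches and 1 AP-1 match, TGACTCA, 61 bases before the RefSeq start. The Nfil3 window held 1 E-box match. The distal Runx3 window held 2 RUNX matches (ACCACA, the reverse complement of the motif) 134 and 126 bases before the start, and it overlaps exons of the gene model Gm16225. The Bcl6 window lies before an internal start, 7.57 kb inside the gene, and held TTCCTGGAA 168 bases and TTCCGGGAA 88 bases before it. Of 32851 windows of 250 bases, 66.2% held the E-box, 6.75% AP-1, 14% RUNX and 4.06% BCL6. The shares were 5.43% for NFIL3, 2.44% for PU.1 and 2.98% for IRF. No NFIL3, PU.1 or IRF match was found in the windows of the 8 genes. Reads were counted per gene, so these values cannot tell the starts of a gene apart.

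Zbtb46 (ENSMUSG00000027583.13, chr2:181387762-181459426, minus strand in GENCODE M21) was high in the cDC1 library. Its levels were 152 (149 to 156), 22.0 (20.7 to 23.4), 47.5 (45.7 to 49.3) and 20.9 (19.7 to 22.1) CPM, from 7474, 1021, 2726 and 1139 estimated reads. The cDC1 library stood 3.21-fold (3.07 to 3.35) above the CD103int DC library, which stood 2.16-fold (2.01 to 2.32) above the cDC2 library. The cDC2 and macrophage libraries could not be separated by counting (1.05-fold, 0.968 to 1.15). Zbtb46, a gene that marks the cDC lineage, was thus no higher in the library labelled cDC2 than in that labelled macrophage beyond counting error, although with equal column totals it was 0.33 higher on log2(CPM + 1). Rescaling by median ratio put Zbtb46 0.05 higher.

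Batf3 (ENSMUSG00000026630.9, chr1:191097847-191108945, plus strand) stood at 16.1 (15.0 to 17.3), 12.6 (11.6 to 13.7), 16.2 (15.2 to 17.3) and 9.75 (8.94 to 10.6) CPM. The cDC1 and CD103int DC libraries had the same level (1-fold, 0.913 to 1.11). The cDC1 library was 1.28-fold (1.15 to 1.42) above the cDC2 library, which was 1.30-fold (1.15 to 1.46) above the macrophage library. From macrophage to cDC1, Batf3 differed by 0.67 on log2(CPM + 1) and Zbtb46 by 2.81. Irf8, which encodes the partner of BATF3, stood at 704, 226, 193 and 268 CPM.

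Id2 (ENSMUSG00000020644.9, chr12:25093799-25097140, minus strand) was highest in the CD103int DC library. It stood at 92.0 (89.3 to 94.7), 90.2 (87.5 to 93.0), 133 (130.1 to 136) and 80.0 (77.7 to 82.4) CPM. The CD103int DC library was 1.45-fold (1.39 to 1.5) above cDC1, whose level was that of cDC2 within counting error (1.02-fold, 0.978 to 1.06). The cDC2 library was 1.13-fold (1.08 to 1.18) above macrophages. Id2 was thus present in all 4 populations, with a spread smaller than 2-fold.

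Id3 (ENSMUSG00000007872.3, chr4:136143497-136145755, plus strand), the paralog of Id2, was highest in the macrophage library, at 18.1 CPM (17.0 to 19.2), against 5.76 (5.09 to 6.49) in cDC2 and 2.60 (2.20 to 3.05) in CD103int DC, and it was listed at 0 in cDC1. The macrophage library was 3.14-fold (2.74 to 3.61) above cDC2, which was 2.22-fold (1.81 to 2.73) above CD103int DC. No fold is given against cDC1. The cDC1 column listed 454 genes at 0, against 10 to 20 in the other columns, and 22 of them had at least 10 CPM elsewhere, while only 40 genes lay above 0 and up to 3 reads. Their part in the 0 of Id3 was not tested. Id1, the third ID gene measured, was also lowest in cDC1, at 1.18, 3.36, 1.86 and 6.54 CPM.

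Nfil3 (ENSMUSG00000056749.7, chr13:52967209-52981073, minus strand) was lowest in cDC1, where Zbtb46 was highest. Its levels were 73.2 (70.9 to 75.7), 186 (182 to 190.2), 187 (184 to 191) and 377 (372 to 382) CPM. The cDC2 and CD103int DC libraries did not differ beyond counting error (1-fold, 0.976 to 1.03). They were 2.54-fold (2.45 to 2.64) and 2.55-fold (2.46 to 2.65) above cDC1, and macrophages were 2.02-fold (1.97 to 2.06) above CD103int DC. This factor of the type 1 fate was thus lowest in the library labelled cDC1 and highest in macrophages. Zeb2, which belongs to the same circuit, had the same order at its ends, at 281, 559, 523 and 826 CPM.

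Runx3 (ENSMUSG00000070691.10, chr4:135120652-135177990, plus strand) stood at 158 (155 to 162), 158 (155 to 162), 138 (135 to 141) and 223 (219.5 to 227) CPM. Macrophages were 1.41-fold (1.37 to 1.45) above cDC1, cDC1 and cDC2 did not differ beyond counting error (1-fold, 0.97 to 1.03), and cDC2 was 1.15-fold (1.11 to 1.19) above CD103int DC. Runx3 was therefore close to level among the dendritic cell libraries. Its excess in macrophages depends on the scaling: cDC1 minus macrophage was -0.49 on log2(CPM + 1) as deposited and -0.13 with equal column totals. Rescaling by median ratio gave -0.51.

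Bcl6 (ENSMUSG00000022508.5, chr16:23965052-23988852, minus strand) stood at 85.5 (82.9 to 88.1), 74.9 (72.4 to 77.4), 52.3 (50.4 to 54.2) and 136 (133 to 139) CPM. Macrophages were 1.59-fold (1.53 to 1.66) above cDC1, cDC1 was 1.14-fold (1.09 to 1.19) above cDC2, and cDC2 was 1.43-fold (1.36 to 1.5) above CD103int DC. The CD103int DC library was the lowest for Bcl6, and the macrophage library stood 2.61-fold (2.50 to 2.72) above it. With equal column totals, cDC1 minus macrophage was -0.30 on log2(CPM + 1), against -0.67 as deposited. For CD103int DC minus macrophage the values were -1.10 and -1.37. Rescaling by median ratio gave -0.68 for cDC1 and -1.38 for CD103int DC, each minus macrophage. Bcl6 shares 21 exon bases with an opposite-strand gene model, Gm37419, and the strand setting of the authors' counting is not given.

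Ikzf1 (ENSMUSG00000018654.17, chr11:11685003-11772926, plus strand) was high in 2 libraries, at 338 (333 to 344), 189.7 (186 to 194), 202 (198 to 206) and 331 (326 to 336) CPM. Macrophages were 1.64-fold (1.60 to 1.68) above CD103int DC, which were 1.07-fold (1.04 to 1.10) above cDC2, and cDC1 was 1.02-fold (1 to 1.04) above macrophages. The cDC1 and macrophage libraries were thus both above the other 2. With equal column totals, cDC1 was 0.40 above macrophages on log2(CPM + 1), against 0.03 as deposited and 0.02 by median ratio.

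**Figure D1:**
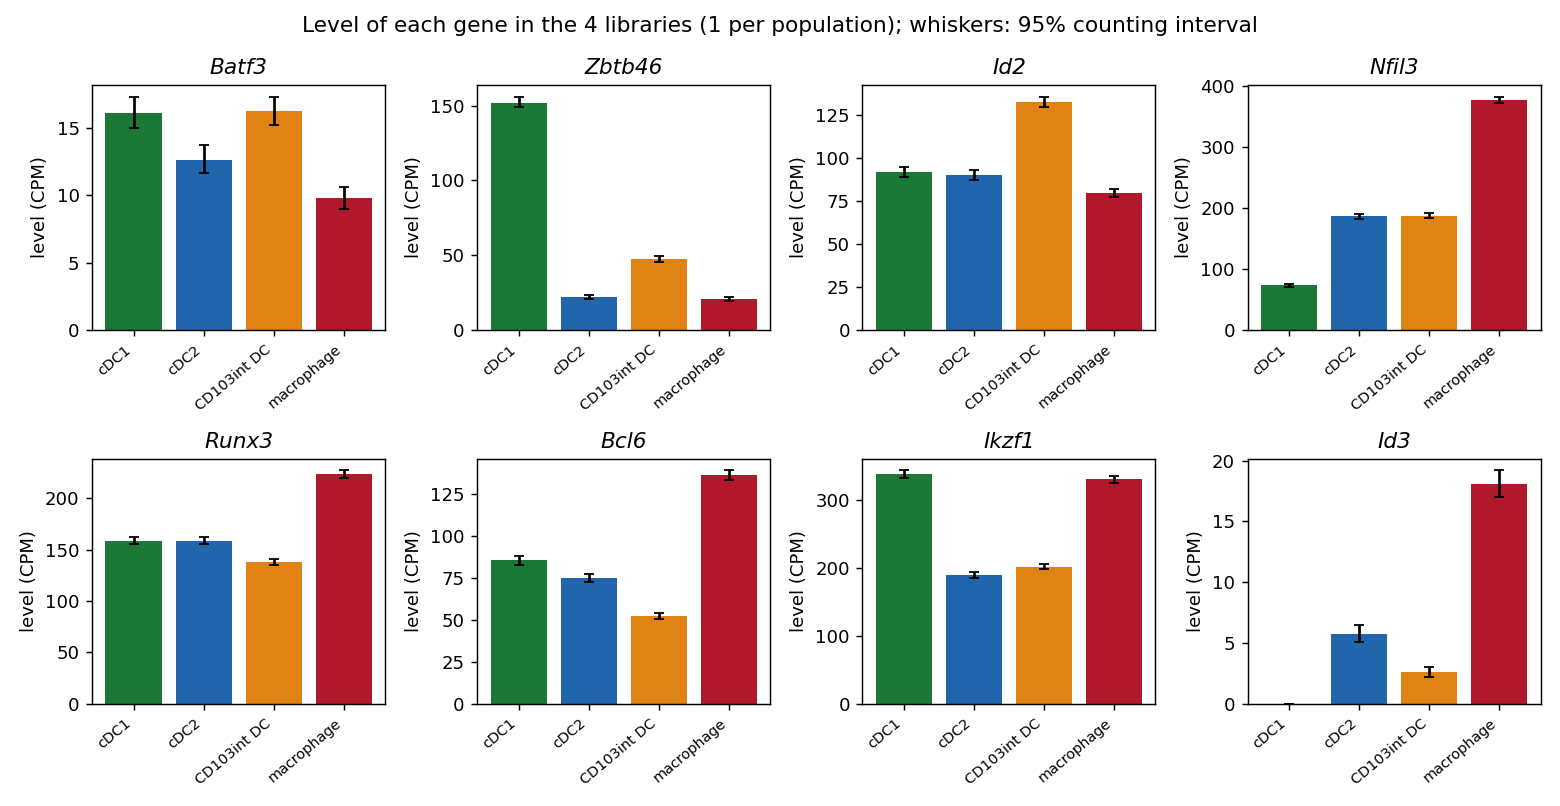
Level of each of the 8 genes in CPM (bars, from 0) in the 4 libraries, 1 library per population, with whiskers for the 95% counting interval. Zbtb46 was highest in cDC1 (152 CPM), Id2 in CD103int DC (133 CPM), and Nfil3, Runx3, Bcl6 and Id3 in macrophages. Ikzf1 was high in cDC1 and macrophages.

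For Zbtb46 and Ikzf1, both high in cDC1, that library also held the highest sum of plasmacytoid dendritic cell markers (97.9 CPM for the 3 of 6 in the table, Siglech among them, against 5.40 to 7.39), none of them at 0 in any library. The 6 mature dendritic cell markers summed to 319 CPM in cDC1 against 81.5 to 92.5 elsewhere, but 264 of the 319 came from Il4i1, and without it the sums were 54.8, 62.8, 64.9 and 39.8 CPM. For Nfil3, Runx3, Bcl6 and Id3, the macrophage library also held the highest sum of monocyte markers (4415 against 975 to 1203 CPM, 5 of 5), again with none at 0. Of the 6 neutrophil markers 2 were in the table, and they differed: Csf3r was highest in macrophages (157 against 8.87 to 62.2 CPM) and Cxcr2 in CD103int DC (2.26, against 1.25 in macrophages). T cell (6 of 7) and NK and innate lymphoid markers (6 of 8) summed to 7.07 to 19.4 and 1.5 to 22.0 CPM, and 1 of the latter was at 0 in cDC1. The part of these cells in the levels was not tested.

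In each pair of libraries, a gene was called apart when its difference on log2(CPM + 1) was at least 1 (about 2-fold) and it reached 10 CPM in the higher library. Against cDC1, CD103int DC were higher for 1 of the 7 members past that minimum, Nfil3, where 9.16% of 8443 genes were called higher, and lower for 1, Zbtb46, where 5.46% were called lower. Against cDC2, CD103int DC were higher for 1 of 7, Zbtb46, where 1.56% of 8119 genes were called higher, and lower for 0, where 0.665% were called lower. Against macrophages, CD103int DC were higher for 1 of 8, Zbtb46 (4.35% of 8254 genes called higher), and lower for 3, Id3, Bcl6 and Nfil3 (8.31% called lower). cDC1 were higher than cDC2 for 1 of 7, Zbtb46 (7.27% of 8459 genes), and lower for 1, Nfil3 (9.56%). cDC1 were higher than macrophages for 1 of 8, Zbtb46 (9.21% of 8468 genes), and lower for 2, Id3 and Nfil3 (15.8%). cDC2 were higher than macrophages for 0 of 8 (1.78% of 8141 genes) and lower for 2, Id3 and Nfil3 (6.01%). Id3 was below the minimum in the 3 pairs of dendritic cell libraries. In the 3 macrophage pairs Id3 passed only through the macrophage library, and so had to stand high there, and Batf3 passed only through the dendritic cell library. These counts are descriptions of single libraries. The counts with macrophages are sensitive to scaling: with equal totals, Nfil3 was at -0.75 for CD103int DC and -0.74 for cDC2, no longer past the rule, while Batf3 came to 1.01 in cDC1 against macrophages. Rescaling by median ratio left the counts of members as deposited, with Nfil3 at -1.03 for both CD103int DC and cDC2 and Batf3 at 0.66.

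On log2(CPM + 1), the median difference of the members past the minimum was -0.20 for CD103int DC against cDC1 (0.03 over all genes past it), 0.09 against cDC2 (0.02) and -0.70 against macrophages (-0.07). It was 0.19 for cDC1 against cDC2 (-0.01), -0.23 for cDC1 against macrophages (-0.09) and -0.65 for cDC2 against macrophages (-0.09). The medians against macrophages depend on the scaling and on Id3. With equal totals they were -0.44 for CD103int DC (0.20 over all genes), 0.14 for cDC1 (0.29) and -0.38 for cDC2 (0.18), so that the sign turned for cDC1. By median ratio they were -0.72, -0.24 and -0.67. The median over all genes moved along, and that of the members lay below it under each of these scalings. Without Id3, the median for cDC1 was 0.03 as deposited and 0.40 with equal totals, above that of all genes in both. Pairs share libraries, so these medians are not independent of each other.

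The CD103int DC and cDC2 pair had the fewest genes called apart, and 3 of the members lay toward the edges of its spread. Zbtb46 differed by 1.08 on log2(CPM + 1), above 98.6% of the genes tested, Id2 by 0.56, above 95.5%, and Bcl6 by -0.51, with 4.03% of genes below it. Nfil3 (0.01) and Ikzf1 (0.09) were nearly equal, Runx3 was at -0.20 and Batf3 at 0.34. In cDC1 against cDC2, Zbtb46 was at 2.74, above 98.9% of genes, and Nfil3 at -1.33. Batf3 differed between CD103int DC and cDC1 by 0.01 as deposited and by -0.09 with equal totals, so its sign there depends on the scaling.

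**Figure D2:**
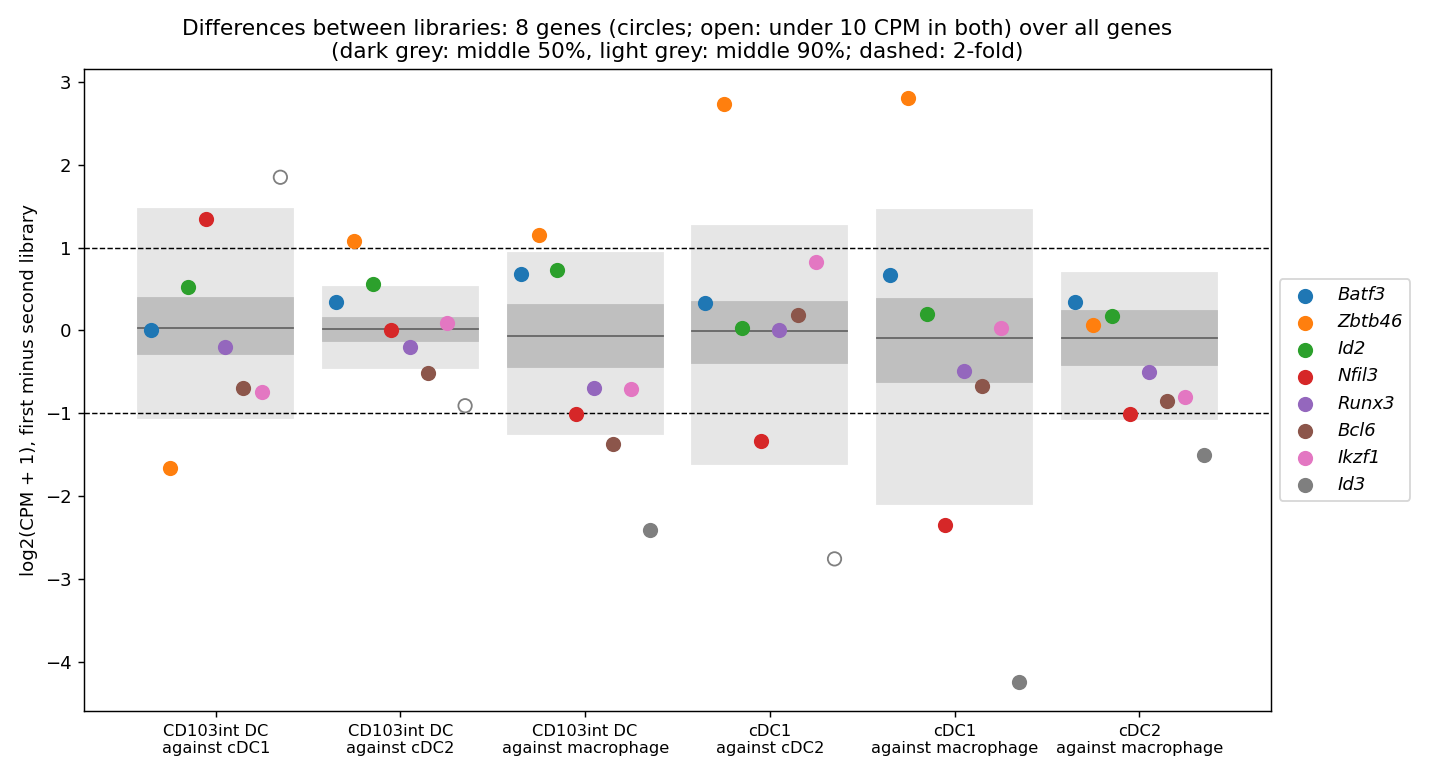
Difference on log2(CPM + 1) of each gene (circles, open where both libraries were under 10 CPM) in the 6 pairs of libraries, over the spread of all genes past 10 CPM (dark grey the middle 50%, light grey the middle 90%). Zbtb46 lay outside the light band in 5 pairs, and in cDC2 against macrophage it was at 0.07. The dashed lines mark 2-fold.

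Over the 4 libraries, Zbtb46 spanned 2.81 on log2(CPM + 1), Nfil3 2.35 and Bcl6 1.37, wider than 95.4%, 92.6% and 79.6% of the 8724 genes that reached 10 CPM in a library, whose median span was 0.69. Batf3 (0.68), Runx3 (0.69), Id2 (0.73) and Ikzf1 (0.83) had spans near that median. Id3 spanned 4.25, but its lowest library is listed at 0, so the added 1 CPM sets this value: cDC1 minus macrophage was -4.25, and -6.2 with 0.25 CPM added. Of the 8 members, 4 thus varied about as much as a typical gene.

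Genes whose profile over the 4 libraries was closest to a member were ranked by the distance between log2(CPM + 1) values, each centred on its mean over the libraries. Few genes followed Zbtb46: 4 lay within 0.25, led by Hepacam2 (distance 0.16; 12.2, 1.03, 3.34 and 1.2 CPM) and Net1 (0.18; 154, 25.6, 46.3 and 22.0 CPM). Id3 also had 4, led by Tmem26 (0.09; 0.591, 9.98, 4.63 and 27.5 CPM), and Csf3r, the receptor for granulocyte colony-stimulating factor, was among its 3 nearest (0.19; 8.87, 62.2, 33.2 and 157 CPM). For Nfil3, 17 genes lay within 0.25, the nearest Tbc1d2b (0.03; 33.0, 86.2, 84.2 and 172 CPM). For Bcl6, 19 did, with Rasa3, a Ras GTPase-activating protein, nearest (0.15). Batf3, Runx3, Ikzf1 and Id2 had 289, 397, 79 and 59 such genes, with Prcp (0.04), Emp1 (0.04), Rictor (0.06) and Mxd4 (0.05) nearest. Among the members, Batf3 and Id2 were closest (0.41), and Zbtb46 and Id3 farthest apart (5.28). All distances of Id3, also those to its nearest genes, depend on the added 1 CPM, as Id3 was listed at 0 in cDC1. So does the distance between Hepacam2 and Zbtb46, as Hepacam2 stood at 1.03 and 1.2 CPM in cDC2 and macrophages. Distances were not scaled to the span, and the members that spanned most (Id3, Zbtb46, Nfil3 and Bcl6) had the fewest genes within 0.25. The numbers of near genes therefore do not show that a pattern is rare apart from its span. With 4 libraries, many genes share a profile, and these distances are a description.

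The members were ranked against each other per kb of exon (all annotated exons merged, in CPM per kb). In cDC1 the order was Ikzf1 (58.6), Id2 (37.7), Nfil3 (36.1), Runx3 (31.6), Zbtb46 (17.9), Bcl6 (12.8), Batf3 (10.1) and Id3 (0). Nfil3 led the other libraries, at 91.9 in cDC2, 92.3 in CD103int DC and 186 in macrophages. Id2 came second in cDC2 (37.0) and CD103int DC (54.6), and Ikzf1 in macrophages (57.3). Batf3 was among the 4 lowest in every library, at 10.1, 7.91, 10.1 and 6.10. Zbtb46 was last in cDC2 (2.59) and macrophages (2.45). Taking the length of the longest transcript instead exchanged Nfil3 and Runx3 in cDC1, and Ikzf1 and Runx3 in cDC2.

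**Figure D3:**
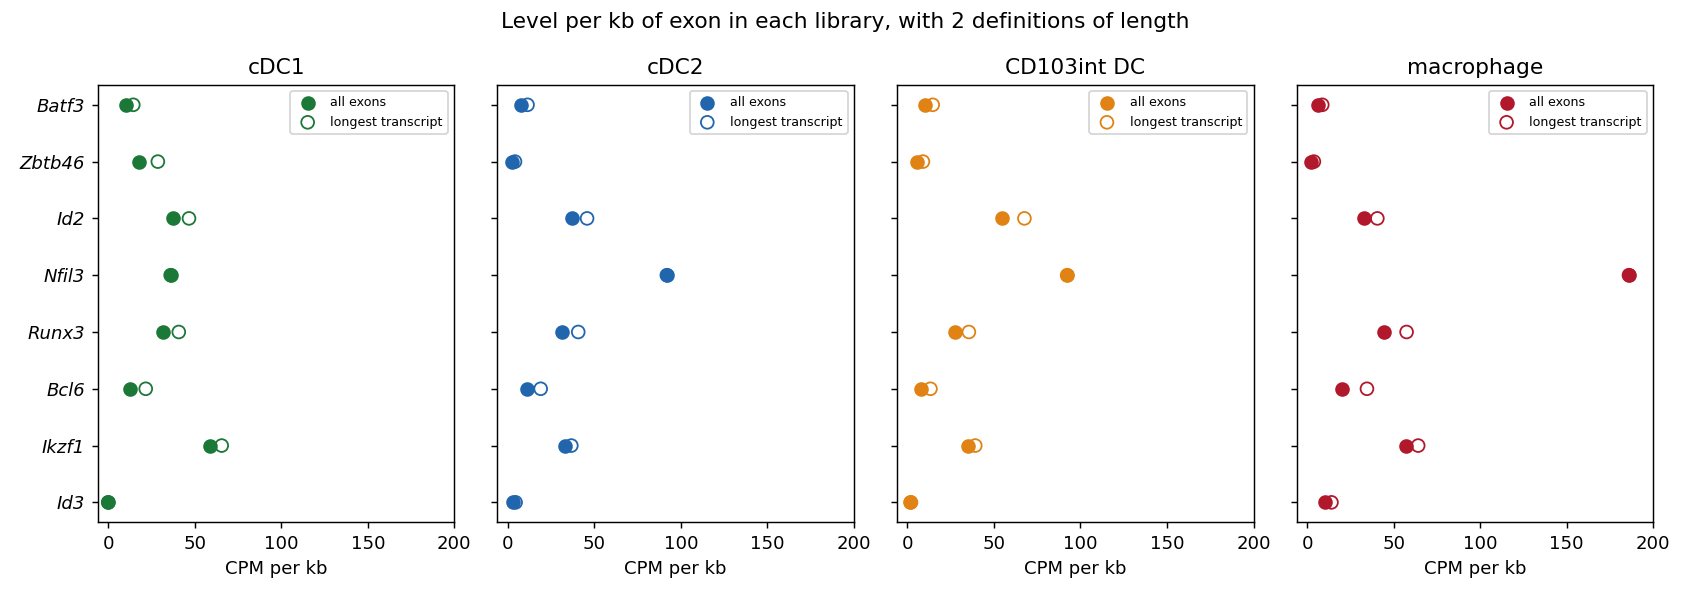
Level of each gene per kb of exon (CPM per kb) in the 4 libraries, with the length of all merged exons (filled) or of the longest transcript (open). Nfil3, with the same length under both, was the highest in cDC2, CD103int DC and macrophages (91.9, 92.3 and 186 CPM per kb).

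Genes related to the members were taken from 7 lists of 47 genes, of which 45 were in the table (Id4 and Ikzf4 were not analysed here). The lists hold relatives and partners of the members, other regulators, and 8 receptors and genes of the cDC lineage. They were chosen with earlier results of these data known, so the shares below describe the chosen genes and test nothing. Across these lists, 42 genes passed the minimum in CD103int DC against cDC1, of which 5 were higher (11.9%, against 9.16% of all genes) and 11 lower (26.2%, against 5.46%), and in CD103int DC against cDC2 none of 39 was called in either direction, against the 1.56% and 0.665% of all genes. CD103int DC against macrophages had 3 higher and 3 lower of 39 (7.69% each, against 4.35% and 8.31% of all genes), and 4 and 2 with equal totals. cDC1 had 11 higher and 5 lower of 42 against cDC2 (26.2% and 11.9%, against 7.27% and 9.56%). Against macrophages, cDC1 had 10 higher and 7 lower of 42 (23.8% and 16.7%, against 9.21% and 15.8%), and 13 and 6 with equal totals. cDC2 had 4 higher and 4 lower of 39 against macrophages (10.3% each, against 1.78% and 6.01%), and 4 and 1 with equal totals. Rescaling by median ratio left the list counts of every pair as deposited. As deposited, the genes higher than in macrophages were Cd74, Itgax and H2-Ab1 in CD103int DC, and these and H2-Aa in cDC2. All of them came from the list of receptors and genes of the cDC lineage.

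Among the E proteins, Tcf4, the partner that ID proteins restrain, stood at 501, 70.7, 63.2 and 110 CPM, highest in cDC1, where the markers of plasmacytoid dendritic cells were also highest. Tcf3 (31.2, 35, 42.7 and 32.9 CPM) and Tcf12 (68.0, 44.1, 42.7 and 49.4 CPM) varied less. The ratio of Id2 to Tcf4, per kb of exon, was 2.06, 14.3, 23.6 and 8.16, lowest in cDC1 and highest in CD103int DC. With the longest transcript it was 0.799, 5.56, 9.16 and 3.16, in the same order. The ratio of Id2 to Id3 per kb was 11.5 in cDC2, 37.7 in CD103int DC and 3.25 in macrophages.

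Of the BATF family, Batf, whose product can replace BATF3, stood at 16.9, 22.5, 21.8 and 21.1 CPM. Batf2 was lowest in cDC1, at 5.81, 33.0, 26.9 and 26.9 CPM. Irf4, a factor of type 2 cells, stood at 152, 38, 71.6 and 49.9 CPM and was highest in cDC1. Junb, a dimer partner of BATF proteins, stood at 544, 1176, 1249.8 and 1763 CPM.

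Runx1 stood at 342, 188, 193 and 242 CPM and Runx2 at 76.9, 21.8, 14.5 and 39.4 CPM, both highest in cDC1, while Runx3 was highest in macrophages. Cbfb, the shared partner, was level at 131, 119, 133 and 135 CPM. Ikzf2, a relative of Ikzf1, stood at 16.7, 4.31, 3.48 and 5.35 CPM. Prdm1, whose product and BCL6 repress each other in B cells, stood at 13.3, 70.6, 46.5 and 158 CPM. The corepressors Bcor, Ncor1 and Hdac3 were not called apart in any pair.

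**Figure D4:**
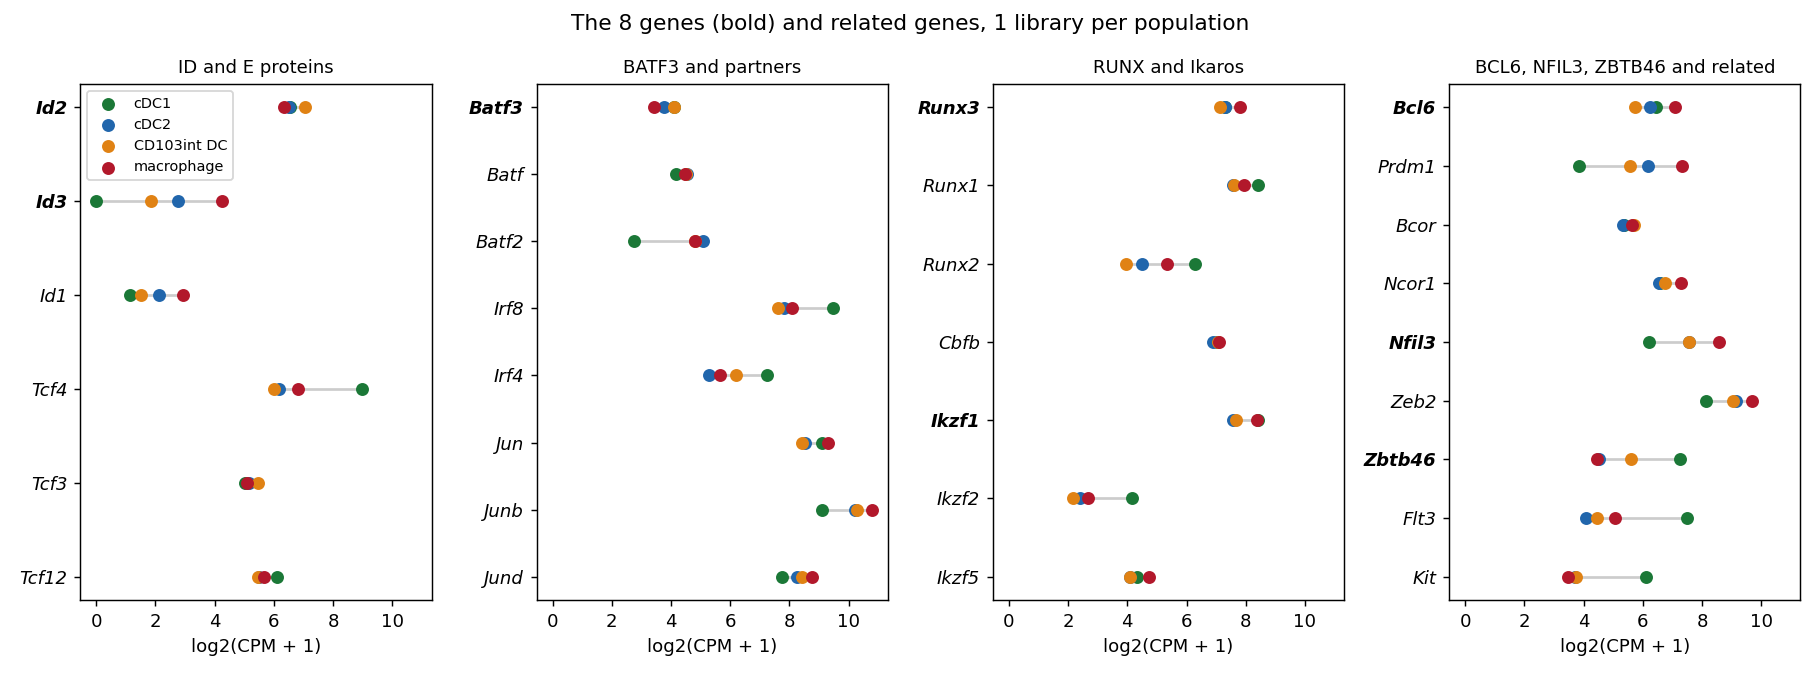
Level on log2(CPM + 1) of the members (bold) and of related genes in the 4 libraries (colours), 1 library per population. Tcf4, Irf8, Runx2, Flt3 and Kit were highest in cDC1, as Zbtb46 was, and Prdm1, Junb and Zeb2 in macrophages, as Nfil3 and Bcl6 were.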

How the data were processed

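RNA from 4 populations was extracted with a column kit, treated with DNase I and made into directional libraries, per the labels' protocols. The deposited values are an expression signal, which the deposited table's name calls filtered CPM with TMM scaling (a trimmed mean of M values) and whose filter is not stated. For aligner, counter, strand setting and build, each is not given in the sources used here. By identifier, all 13976 genes matched GENCODE M21 (GRCm38). The macrophage column summed to 1169346, which plain CPM cannot.

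The value of 1 read was estimated from the low values (0.0204, 0.0216, 0.0174 and 0.0183 CPM). Between 70.4% and 78.9% of values were whole multiples of it (tolerance 0.001), so no count test was run. The values of the 8 members were whole reads to within 0.00034. A value of 10 CPM stood for 464 to 574 reads. Differences were taken on log2(CPM + 1), which understates those of low genes. The rule of size was checked on simulated data, which held counting error but no spread between mice or sorts. Columns were matched to libraries by name, and 0 columns were left over.

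The text names the 8 members, the genes of the lists and the 3 genes nearest to a member in profile. A listed gene that is not named stands in the list counts only and is not reported here. The members and lists were chosen with earlier results of these data known. Promoters and motifs were chosen likewise. Alternatives changed the scaling, the pseudocount (0.25 CPM), the minimum (1 CPM or none), the 2 ribosomal RNA gene models and, added after seeing the data, the gene length, the medians without Id3 and the mature dendritic cell markers without Il4i1. Python 3.11.15, numpy 2.4.6, pandas 2.3.3, scipy 1.17.1 and matplotlib 3.10.9 were used.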

Additional observations from a re-analysis of the deposited data

How the results depend on the processing

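The number of members at least 2-fold apart was 2, 1, 4, 2, 3 and 2 in the pairs CD103int DC against cDC1, cDC2 and macrophage, cDC1 against cDC2 and macrophage, and cDC2 against macrophage. For cDC2 against macrophage it was 1 when the columns were rescaled to equal totals and 1 when the ribosomal RNA gene models were also left out, because Nfil3 moved to -0.74 and -0.83. The other counts stayed within 1.5 times of these values. Nfil3 was also no longer apart in CD103int DC against macrophage (-0.75 and -0.81), and Batf3 came to be apart in cDC1 against macrophage (1.01 and 1.03). Ikzf1 came to be apart in cDC1 against cDC2 with the ribosomal RNA gene models left out (1.03), and Id3 in 2 pairs with cDC1 with a minimum of 1 CPM or none. Of 192 differences recomputed, 2 turned sign, both of Batf3 in CD103int DC against cDC1 (-0.09 and -0.18). Many more moved in size. Of the 48 differences per setting, only 11 stayed within the margin of their counting interval with equal totals. With the ribosomal RNA gene models also left out, 11 did, against 45 with columns rescaled by median ratio and 44 with the smaller pseudocount. Differences of Id3 with cDC1 have no such interval and count as moved. No paired analysis was possible because each population had 1 library. Depth limits Id3 most, with 267 and 149 estimated reads in cDC2 and CD103int DC, and no population had a replicate.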

Other observations

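Among 15 other regulators of dendritic cell development, Bcl11a (354, 26.9, 28.4 and 32.8 CPM in cDC1, cDC2, CD103int DC and macrophage), Mycl (67.9, 4.18, 7.96 and 7.29 CPM) and Spib (48.6, 6.94, 4.18 and 7.40 CPM) stood in cDC1 more than 2-fold above each other library. Bcl11a and Spib are also active in plasmacytoid dendritic cells, whose markers were highest in the same library, and their part in these values was not tested. Cebpb, a factor of monocytes and macrophages, stood at 44.5, 457, 409 and 857 CPM, and Klf4 at 119.7, 150.1, 188 and 371 CPM. Among 8 receptors and genes of the cDC lineage, Flt3 stood at 179, 15.8, 21 and 32.6 CPM, Kit at 67.8, 12.1, 12.3 and 10.2 CPM and Dpp4 at 119, 35.2, 38.6 and 51.7 CPM, all highest in cDC1. The other 5 were not: Ccr7 was lowest there (10.2, 18.3, 11.1 and 14.4 CPM), Itgax (769.7, 1438, 1280.2 and 516 CPM), H2-Aa and H2-Ab1 were highest in cDC2, and Cd74 was highest in CD103int DC.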
